A study of Mus musculus with 18 samples.

Results

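The Ifi200 family and Aim2 are PYHIN genes, whose proteins combine a pyrin domain, a HIN domain or both. The 10 genes described are Aim2, Ifi203, Ifi204, Ifi205, Ifi206, Ifi207, Ifi208, Ifi209, Ifi211 and Ifi213, taken by symbol and mapped to their mouse Ensembl numbers, out of 13598 genes with a value in the series. Peritoneal macrophages came from mice of 3 genotypes (TLR4-WT, TLR4-K730R, TLR4-K810R), received no stimulus (control) or LPS at 100 ng/ml over 6 h, and gave 18 RNA-seq libraries, 3 for each of the 6 combinations. Each mutant line carries arginine in place of 1 lysine, at the named position, in the TIR domain of TLR4, and per the paper's methods the knock-in was made with CRISPR on a C57BL/6 background and the macrophages were drawn out with thioglycollate. Neither the age of the mice nor whether replicates came from separate mice is given in the sources used here, so p-values measure the spread between these libraries, which may be technical.

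AIM2 binds double-stranded DNA in the cytosol through its HIN domain and, through its pyrin domain, recruits the adaptor ASC (Pycard), which activates caspase-1 in the inflammasome. Several Ifi200 proteins are nuclear or cytosolic DNA-binding proteins, and many genes of the family are induced by interferon. LPS, the ligand of TLR4, leads macrophages to make type I interferon, which acts back on the same cells.

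The family lies in one cluster on chromosome 1. In the GENCODE M21 annotation of GRCm38 it runs from Aim2 (ENSMUSG00000037860, chr1:173350879-173466040, plus strand) to Ifi205 (ENSMUSG00000054203, chr1:174011998-174031810, minus strand), a stretch of 681 kb that 22 annotated genes overlap. Ifi209 (ENSMUSG00000043263, chr1:173630917-173647928) and Ifi208 (ENSMUSG00000066677, chr1:173673675-173698395) are also on the plus strand. The minus strand carries Ifi206 (ENSMUSG00000037849, chr1:173468485-173491041), Ifi213 (ENSMUSG00000073491, chr1:173566283-173599274) and Ifi207 (ENSMUSG00000073490, chr1:173723427-173741747). Further along the minus strand come Ifi204 (ENSMUSG00000073489, chr1:173747293-173766943), Ifi211 (ENSMUSG00000026536, chr1:173896345-173913046) and Ifi203 (ENSMUSG00000039997, chr1:173920407-173942672).

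The promoters of most members share a short stretch, shown because 8 of the 9 members with a promoter window hold it. The RefSeq promoter table (GRCm38.p6, 250 bases before to 50 after each start) holds 9 of the 10 members, and Ifi204 is not among them. The letters AAATNGAAA, searched on both strands and chosen after the promoters had been seen, occur on the gene's own strand in 8 of these 9 members (for Ifi203 in the second of its 2 promoters) and on that strand in 300 of all 32851 promoters, or 0.913%. On either strand 614 promoters (1.87%) hold them. Ifi214 and Mndal, neighbours in the cluster described below, also hold them on their own strand, so the stretch is not particular to the members. Each line gives 49 bases, 5′ to 3′ on the gene's strand, with these letters in capitals.
Ifi203: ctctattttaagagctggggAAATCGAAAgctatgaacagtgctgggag
Ifi205: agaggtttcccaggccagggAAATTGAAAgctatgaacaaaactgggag
Ifi206: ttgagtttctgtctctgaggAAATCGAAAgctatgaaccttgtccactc
Ifi207: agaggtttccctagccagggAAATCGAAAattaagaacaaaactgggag
Ifi208: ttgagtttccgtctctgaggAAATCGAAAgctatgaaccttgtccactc
Ifi209: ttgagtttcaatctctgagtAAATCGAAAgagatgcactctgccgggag
Ifi211: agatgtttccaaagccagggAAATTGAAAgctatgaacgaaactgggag
Ifi213: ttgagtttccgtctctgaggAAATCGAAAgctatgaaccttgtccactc

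These windows lie at chr1:173942498-173942546 (Ifi203, minus strand), chr1:174031860-174031908 (Ifi205, minus), chr1:173491329-173491377 (Ifi206, minus) and chr1:173741821-173741869 (Ifi207, minus). The others lie at chr1:173673588-173673636 (Ifi208, plus), chr1:173630761-173630809 (Ifi209, plus), chr1:173913054-173913102 (Ifi211, minus) and chr1:173599316-173599364 (Ifi213, minus). The first capital stands 34 bases before the RefSeq start in Ifi203 and 133 bases before it in Ifi205, the nearest and the farthest. In 7 of the 8, all but Ifi209, the stretch overlaps GAAANNGAA on the gene's own strand, letters of the interferon-stimulated response element. On that strand 1471 promoters (4.48%) hold GAAANNGAA, and 2812 (8.56%) hold it on either strand. Where they overlap, both sets of letters share bases, so this is not a separate observation. Neither set of letters is in the Aim2 window (chr1:173420354-173420653), which holds the start of the second of the 4 Aim2 first exons described below. The starts of the others, among them the fourth with the highest median level, were not searched, so nothing is said about Aim2 promoters as a whole or about factors that bind there. Ifi206 and Ifi208 share an unbroken run of 182 promoter bases, and Ifi213 shares 135 bases with each of them.

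Near-identical sequence also bears on the values. Of the 75-base windows in the annotated transcripts of Ifi211, 63.6% also occur in transcripts of another gene of the cluster, mostly Ifi205, with which it shares 40.6%. The share was 23.1% for Ifi209, all of it with Ifi214, and 2.80% to 17.6% for the other Ifi200 members. For Aim2 it was 0. How reads that fit several copies were assigned is not given in the sources used here, so values of single Ifi200 genes are uncertain to that extent, those of Ifi211 most of all.

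The deposited values are FPKM (fragments per kilobase of transcript, scaled to the fragments of the library) of transcript events such as first and last exons. First-exon and last-exon rows were each summed per gene, and the larger sum is its level. No rows stand under the Ensembl number of Ifi204. A first-exon row at chr1:173766811-173766919, which has the coordinates of exon 1 of Ifi204, is listed under the number of Ifi211, and it is described below as the Ifi204 first exon from a separate fit in which rows were assigned by their coordinates. The 9 other members passed the filter of 1 FPKM in 3 libraries. Ifi208 (and Ifi214, a neighbour described below) passed through LPS libraries only, and Ifi206 and Ifi213 not without them. The counts after LPS, and the calls of these genes after LPS, are therefore a description. An exact 0 can be a missing row: Cd14, a macrophage gene, is listed at 0 in 17 of 18 libraries. In the plot of all members by library, the controls and the LPS libraries form separate clouds in every panel except those of Aim2 and Ifi207.

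**Figure D1:**
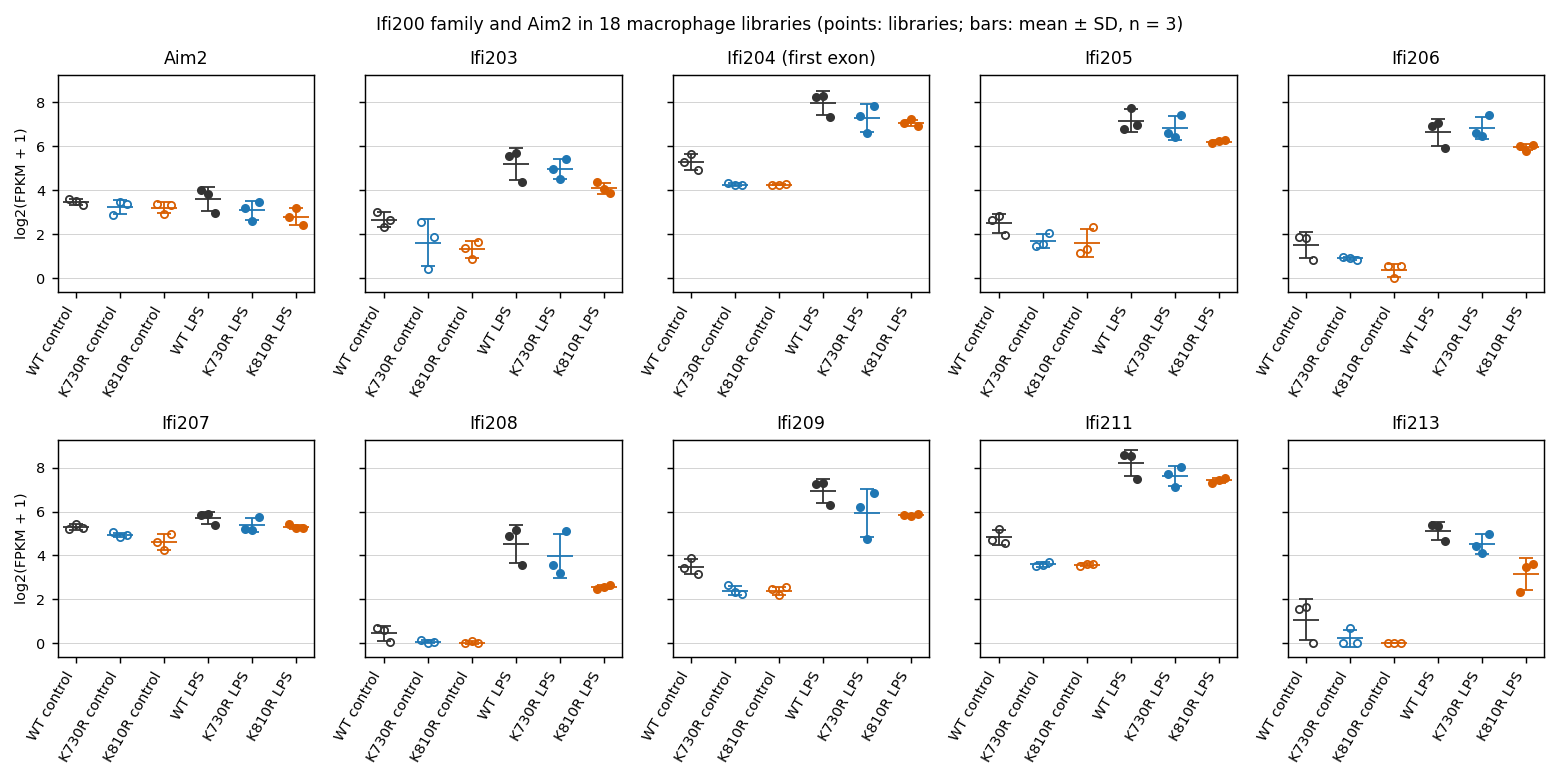
Levels of the 10 genes, as log2(FPKM + 1), in the 6 groups on the horizontal axis. Points are libraries (open, control; filled, LPS) and bars are the mean ± SD of 3 libraries, with Ifi204 taken from its first-exon row. LPS libraries of Ifi206 lie between 54.5 and 168 FPKM and control libraries at or below 2.62 FPKM, while Aim2 stays between 4.27 and 14.9 FPKM throughout.

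The series as a whole bears on these genes in several ways. Tlr4 itself was at 11.7 ± 2.41, 10.4 ± 1.46 and 12.5 ± 1.23 FPKM (SD, n = 3) in TLR4-WT, TLR4-K730R and TLR4-K810R controls, which does not bear on the substitution. Of 8 macrophage markers 7 had a value, and their sum lay between 11633 and 14785 FPKM in controls and between 7289 and 10057 FPKM with LPS, without overlap. Itgam had no row. Most of the sum is Lyz2 (5944 to 13291 FPKM), and of the 6 markers tested 1 was called higher and 4 lower after LPS in TLR4-WT and in TLR4-K730R, and 2 higher and 1 lower in TLR4-K810R. The shares of all genes called higher were 10.4%, 9.32% and 9.08%, and lower 23.9%, 26.5% and 19.7%, in the same order. T cell markers (5 of 5 with a value) summed to at most 0.958 FPKM, B cell markers (4 of 5) to at most 3.66 FPKM and dendritic cell markers (2 of 5) to at most 1.65 FPKM. Neutrophil markers (6 of 6) summed to 33.1 to 47.5, 46.2 to 52.4 and 53.6 to 63.6 FPKM in TLR4-WT, TLR4-K730R and TLR4-K810R controls, so that TLR4-K810R lay above TLR4-WT, and to 182 to 248 FPKM with LPS. Most of it was S100a8, while Ly6g was at 0 in 13 libraries and Cxcr2 in 17. Against TLR4-WT, 1 of the 4 neutrophil markers tested was called lower in TLR4-K730R controls and 1 higher in TLR4-K810R with LPS. Of all 9707 genes tested, 21 and 5 were called in these ways. The part of either cell type in the differences between groups was not tested.

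The first question is how each member responds to LPS in each genotype. In TLR4-WT macrophages 7 of the 9 members with rows of their own were higher with LPS (limma on log2(FPKM + 1), Benjamini-Hochberg adjusted p below 0.01), namely Ifi203, Ifi205, Ifi206, Ifi208, Ifi209, Ifi211 and Ifi213. Of all 9707 genes tested, 10.4% were called higher. The same 7 were called higher in TLR4-K730R, against 9.32% of all genes, and 8 members in TLR4-K810R, against 9.08%, where Ifi207 was the eighth. Aim2 was not called in any genotype. The median difference over the 9 members was 3.46 for TLR4-WT, 3.89 for TLR4-K730R and 3.14 for TLR4-K810R on the log2 scale, and that over all genes tested was −0.28, −0.36 and −0.26.

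Every LPS library lay above every control library for 7 members in TLR4-WT, against 15.5% of all genes, and for 8 members in each mutant, against 13.8% in TLR4-K730R and 14.6% in TLR4-K810R. Scaling the libraries by the median of ratios moved the all-gene medians to −0.02, −0.04 and −0.04. It also changed the split of all calls in TLR4-WT from 1012 higher and 2316 lower to 1492 higher and 1379 lower. The 7 members called in TLR4-WT were also called in each alternative that tested them, as listed in the closing section.

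Aim2, the DNA receptor of the inflammasome, passed the threshold in no comparison. It was at 11, 10.3 and 9.07 FPKM in the 3 TLR4-WT controls and at 14.9, 13.2 and 6.83 FPKM with LPS. TLR4-K730R libraries held 6.42, 10.2 and 9.46 FPKM without and 8.20, 4.97 and 9.89 FPKM with LPS, and those of TLR4-K810R 9.33, 6.54 and 8.97 FPKM without and 5.88, 8.03 and 4.27 FPKM with LPS. Control and LPS libraries overlapped in all 3 genotypes, and so did every pair of groups that neighbour each other in the order of means, from TLR4-WT with LPS (11.6 ± 4.24 FPKM) down to TLR4-K810R with LPS (6.06 ± 1.89 FPKM). On the log2 scale the LPS difference was 0.12 in TLR4-WT (95% interval −0.47 to 0.72), −0.18 in TLR4-K730R (−0.77 to 0.42), and in TLR4-K810R −0.41 (−1.01 to 0.18). All 3 intervals lie below the smallest rise of the 7 members called in every genotype, 2.53 for Ifi208 in TLR4-K810R, and the sign in TLR4-K730R turned to 0.19 when libraries were scaled by the median of ratios.

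The Aim2 level rests on its first exons, because its last-exon row is above 0 in 2 of 18 libraries. The annotation gives 4 first exons with rows, at chr1:173419196-173419555, chr1:173420598-173420686, chr1:173454971-173455034 and chr1:173455354-173455615. The fourth had the highest median over the 18 libraries at 4.28 FPKM, ahead of the second at 2.33 and the first at 2.13 FPKM, and the third stayed at or below 0.229 FPKM. In TLR4-WT controls the fourth exon held 44.0% to 52.2% of the first-exon FPKM. With LPS its share ranged from 8.80% to 58.6% in TLR4-WT, from 2.35% to 48.9% in TLR4-K730R and from 2.95% to 59.9% in TLR4-K810R. The bars of Aim2 by first exon show this spread between replicates of 1 LPS group, and no first exon was tested singly.

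**Figure D2:**
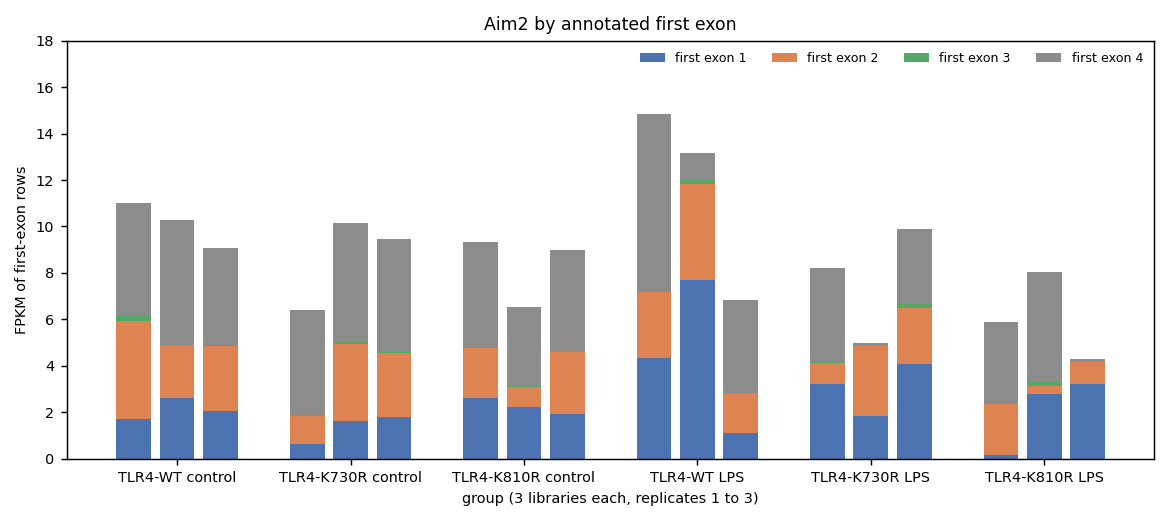
FPKM of the 4 annotated Aim2 first exons, stacked, in each of the 18 libraries, with groups on the horizontal axis. Bar heights lie between 4.27 and 14.9 FPKM, and the part of the fourth exon is near 0 in 1 TLR4-K730R and 1 TLR4-K810R library with LPS.

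Ifi204, whose product p204 is a nuclear and cytosolic DNA-binding protein, was at a high level before LPS. Its first exon stood at 37.8, 49.4 and 29.5 FPKM in TLR4-WT controls, at 18.9, 17.6 and 17.9 FPKM in TLR4-K730R controls and at 17.6, 17.9 and 18.3 FPKM in TLR4-K810R controls. With LPS it stood at 304, 309 and 159.9 FPKM in TLR4-WT, at 163, 95.2 and 230.0 FPKM in TLR4-K730R and at 132, 148 and 121 FPKM in TLR4-K810R. No control library reached the lowest LPS library. In the fit by coordinates over 9986 genes it rose by 2.67 ± 0.28 (SE) in TLR4-WT (limma, adjusted p = 1.4e-06), by 3.01 in TLR4-K730R (adjusted p = 3.5e-07) and by 2.83 in TLR4-K810R (adjusted p = 8.9e-07) on the log2 scale. In that fit 10.3%, 9.24% and 8.82% of all genes were called higher.

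Ifi211, listed in RefSeq also as Mnda and Ifi205b, had the highest LPS level of the members with rows of their own. It was at 24.8, 36.4 and 22.4 FPKM in TLR4-WT controls and at 379.8, 371 and 180.1 FPKM with LPS, a rise of 3.38 ± 0.26 (SE) on the log2 scale (limma, adjusted p = 3.5e-08). TLR4-K730R went from 10.3, 10.9 and 12 FPKM to 209.5, 138 and 258 FPKM, and TLR4-K810R from 10.5, 11.2 and 11.3 FPKM to 154, 174 and 183 FPKM. The controls of both mutants lay below all TLR4-WT controls, and within each mutant they spread over less than 2 FPKM.

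Ifi205, in which 16.6% of the transcript windows also occur in Ifi211, rose from a lower start. Its TLR4-WT libraries were at 5.23, 6.16 and 2.94 FPKM without and 109, 215 and 124 FPKM with LPS, and the rise was 4.68 ± 0.34 on the log2 scale (limma, adjusted p = 1.7e-08). Controls were at 1.73, 1.93 and 3.16 FPKM in TLR4-K730R and at 1.17, 1.52 and 3.96 FPKM in TLR4-K810R. With LPS TLR4-K730R reached 94.9, 85.4 and 172 FPKM and TLR4-K810R 69.7, 73.9 and 76.0 FPKM, so the latter lay below all LPS libraries of the other 2 genotypes.

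On the log2(FPKM + 1) scale Ifi206 had the largest LPS difference of the members in all 3 genotypes, an order that depends on the pseudocount. With 0.1 FPKM the difference in TLR4-WT was 5.75 for Ifi206 and 5.79 for Ifi208. The TLR4-WT libraries held 2.62, 2.53 and 0.751 FPKM without and 121, 131 and 60.2 FPKM with LPS, a rise of 5.14 ± 0.32 on the log2 scale (limma, adjusted p = 2.8e-09). In TLR4-K730R they went from 0.948, 0.873 and 0.751 FPKM to 94.7, 87.5 and 168 FPKM, and the rise was 5.92 (adjusted p = 4.9e-10). In TLR4-K810R they went from 0.443, 0 and 0.440 FPKM to 64.2, 54.5 and 65.5 FPKM, and the rise was 5.61 (adjusted p = 9.8e-10). Ifi206 did not pass the filter without LPS libraries, so these calls are a description. It was the only member whose LPS mean was higher in TLR4-K730R (117 ± 44.5 FPKM) than in TLR4-WT (104 ± 38.1 FPKM), by less than either spread.

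Ifi209, known also as Pyhin1, and Ifi203 were higher with LPS in all 3 genotypes. Ifi209 was at 9.82, 13.7 and 7.99 FPKM in TLR4-WT controls and at 152, 154 and 78.7 FPKM with LPS, a rise of 3.46 ± 0.39 on the log2 scale (limma, adjusted p = 2.5e-06). It went from 5.26, 3.99 and 3.74 FPKM to 72, 25.7 and 115 FPKM in TLR4-K730R and from 4.50, 3.53 and 4.83 FPKM to 55.7, 53.9 and 58.6 FPKM in TLR4-K810R. All 6 mutant controls lay below all TLR4-WT controls. Ifi203 was at 7.16, 4.02 and 5.22 FPKM in TLR4-WT controls and at 46.2, 50.6 and 19.7 FPKM with LPS, a rise of 2.54 ± 0.45 (adjusted p = 0.00023). Its TLR4-K730R controls scattered widely, at 4.90, 0.345 and 2.62 FPKM, and the LPS libraries held 29.8, 21.9 and 41.2 FPKM. In TLR4-K810R Ifi203 went from 1.62, 0.827 and 2.14 FPKM to 19.6, 15.5 and 13.6 FPKM.

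Ifi208 and Ifi213 carry the RefSeq synonyms Pydc3 and Pydc4, names for proteins with a pyrin domain, and were at or near 0 before LPS. Ifi208 was at 0.600, 0.527 and 0.0422 FPKM in TLR4-WT controls, at 0.104, 0 and 0.0449 FPKM in TLR4-K730R controls and at 0, 0.0714 and 0 FPKM in TLR4-K810R controls. With LPS it reached 28.1, 34.8 and 10.7 FPKM in TLR4-WT, 11, 8.18 and 33.4 FPKM in TLR4-K730R and 4.50, 4.91 and 5.33 FPKM in TLR4-K810R. The TLR4-K810R libraries lay close together and below every other LPS library. Ifi213 was at 1.94, 2.17 and 0 FPKM in TLR4-WT controls, at 0, 0.607 and 0 FPKM in TLR4-K730R controls and at 0 in all 3 TLR4-K810R controls. With LPS it reached 40.4, 39.7 and 24.0 FPKM in TLR4-WT, 20.5, 16.3 and 30.9 FPKM in TLR4-K730R and 3.99, 10.2 and 11.4 FPKM in TLR4-K810R, with TLR4-K810R again below all others. In TLR4-WT the rises were 4.08 ± 0.41 for Ifi208 and 4.05 ± 0.42 for Ifi213 (limma, adjusted p = 7.9e-07 and 9.1e-07). Neither gene passed the filter without LPS libraries, so these calls are a description.

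Ifi207 had the smallest LPS difference of the Ifi200 members in each genotype. It was at 35.5, 42.3 and 36.5 FPKM in TLR4-WT controls, at 32.1, 28.0 and 29.2 FPKM in TLR4-K730R controls and at 23.8, 17.9 and 30.2 FPKM in TLR4-K810R controls. With LPS it was at 55.6, 57.4 and 41.1 FPKM, at 36.1, 35.2 and 53.0 FPKM and at 41.6, 37.1 and 36.7 FPKM. The difference was 0.41 in TLR4-WT (limma, adjusted p = 0.082), 0.44 in TLR4-K730R (adjusted p = 0.060) and 0.69 in TLR4-K810R (adjusted p = 0.0074). Only the last passed, and it missed the threshold under 4 of 8 other settings and when any of 5 of the 6 TLR4-K810R libraries was left out, with adjusted p from 0.011 to 0.044. With median-of-ratios scaling Ifi207 passed in TLR4-WT and TLR4-K730R as well (adjusted p = 0.00718 and 0.00279). The plot of LPS differences shows Aim2 and Ifi207 to the left of the other 8 genes.

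**Figure D3:**
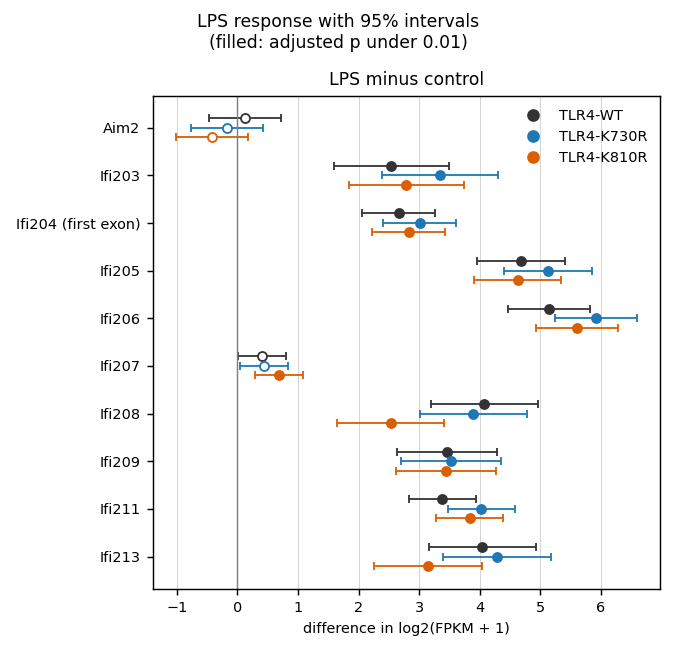
Difference between LPS and control in log2(FPKM + 1), with 95% intervals, for each gene on the vertical axis and each genotype by colour. Filled points have an adjusted p below 0.01. Differences of Aim2 lie between −0.41 and 0.12 and those of Ifi206 between 5.14 and 5.92.

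The second question is whether the TLR4 substitutions change the level of these genes. Without LPS, none of the 9 members was called lower in TLR4-K730R than in TLR4-WT by limma, where 0.216% of all genes were, and 4 were lower at an unadjusted p below 0.05, against 3.85% of all genes. None was called lower in TLR4-K810R, where 0.649% of all genes were, and 7 were lower at an unadjusted p below 0.05, against 4.63% of all genes. All 9 differences were negative in each mutant, with a median of −0.80 in TLR4-K730R and −1.07 in TLR4-K810R against 0.03 and 0.07 over all genes. With a pseudocount of 0.1 FPKM the medians were −1.24 and −1.30. Both comparisons use the same 3 TLR4-WT libraries, so they are not independent of each other, and replicate 3 of these was the lowest for 8 of the 10 genes. Nor are the members independent. Their deviations from group means had a median Pearson's r of 0.60 over pairs without Aim2 and Ifi207. Counts of members here and below are therefore not counts of separate results.

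Every TLR4-K730R control lay below every TLR4-WT control for 3 members (Ifi207, Ifi209 and Ifi211), against 7.45% of all genes. The same held for TLR4-K810R in 5 members (Ifi203, Ifi206, Ifi207, Ifi209 and Ifi211), against 6.64% of all genes. Ifi211 came nearest to the threshold, with a control mean of 27.9 ± 7.51 FPKM (n = 3) for TLR4-WT, 11.1 ± 0.832 for TLR4-K730R and 11 ± 0.426 for TLR4-K810R. Its difference was −1.23 ± 0.26 (SE) in TLR4-K730R (limma, adjusted p = 0.050) and −1.24 ± 0.26 in TLR4-K810R (adjusted p = 0.014). The Ifi204 first exon differed by −1.03 (adjusted p = 0.21) and −1.04 (adjusted p = 0.055), and its control libraries did not overlap either. For Aim2 the differences were −0.22 (95% interval −0.81 to 0.38) and −0.27 (−0.87 to 0.33).

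With LPS, no member was called lower in TLR4-K730R than in TLR4-WT, where 0% of all genes were, and 2 members were lower at an unadjusted p below 0.05, against 5.36% of all genes. None was called lower in TLR4-K810R, where 0.0824% of all genes were, and 7 were lower at an unadjusted p below 0.05, against 6.67% of all genes. Differences were negative for 8 of 9 members in TLR4-K730R (median −0.52, against −0.04 over all genes) and for 9 of 9 in TLR4-K810R (median −0.96, against 0.11). Groups did not overlap for 0 members in TLR4-K730R, against 7.54% of all genes, and for 5 members in TLR4-K810R (Ifi203, Ifi205, Ifi208, Ifi209 and Ifi213), against 7.89% of all genes.

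Ifi208 and Ifi213 had the largest differences in TLR4-K810R with LPS. Mean Ifi208 stood at 24.5 ± 12.4 FPKM for TLR4-WT, 17.5 ± 13.8 for TLR4-K730R and 4.91 ± 0.416 for TLR4-K810R (n = 3 each), or 20% of the TLR4-WT mean in TLR4-K810R. That of Ifi213 was 34.7 ± 9.29, 22.6 ± 7.54 and 8.52 ± 3.97 FPKM, or 24.6% of the TLR4-WT mean. On the log2 scale they differed by −1.96 and −1.98 (limma, adjusted p = 0.030 for each). Aim2 was at 52.2% of the TLR4-WT mean, with a difference of −0.81 (95% interval −1.40 to −0.21, adjusted p = 0.12).

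A single library weighs on this comparison. TLR4-WT LPS replicate 3 was the lowest of its group for 9 of the 10 genes, the exception being Ifi205. Without it, 3 members were called lower in TLR4-K810R: Ifi208 (difference −2.45, limma, adjusted p = 0.0035), Ifi211 (−1.14, adjusted p = 0.0073) and Ifi213 (−2.21, adjusted p = 0.0097). Calls rose over all genes as well, since 0.889% of the 9669 genes tested were then called lower, against 0.0824% with all libraries. In TLR4-K730R with LPS, replicate 2 was the lowest and replicate 3 the highest for all 10 genes, and TLR4-K810R with LPS showed no such order.

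**Figure D4:**
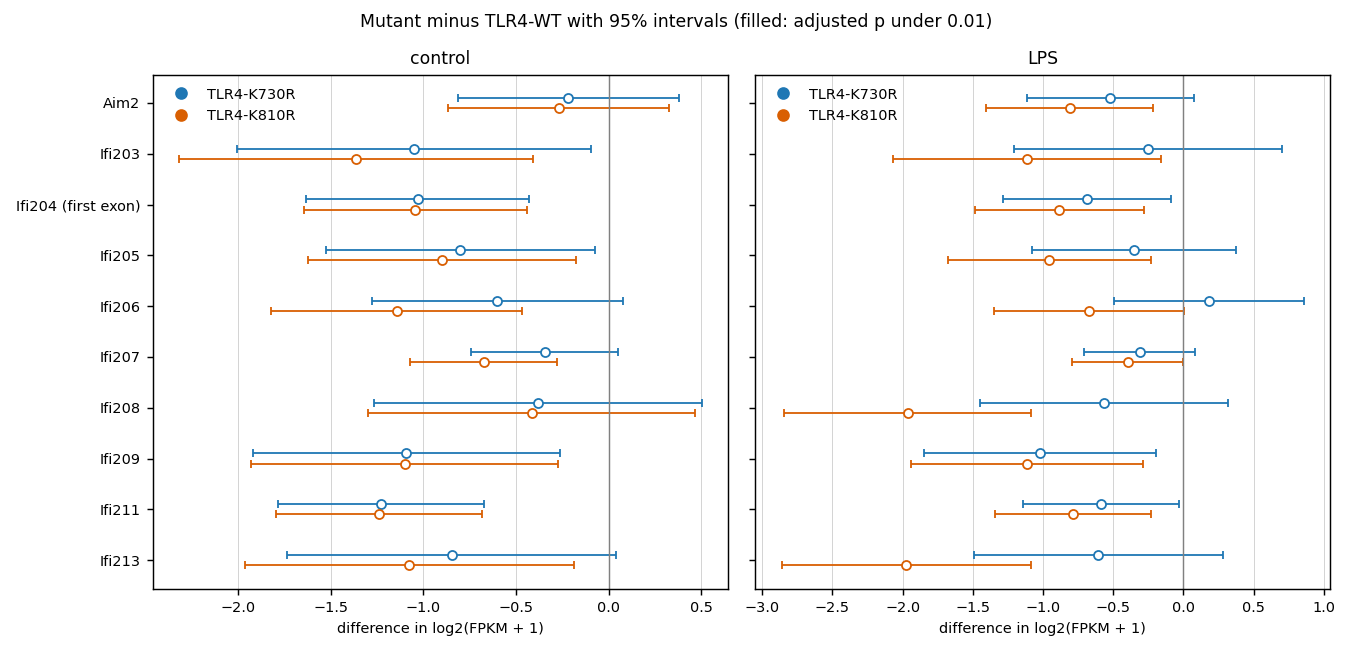
Difference between each mutant and TLR4-WT in log2(FPKM + 1), with 95% intervals, without LPS (left) and with LPS (right), for each gene on the vertical axis. All points are open, since no adjusted p was below 0.01, and all but Ifi206 of TLR4-K730R with LPS (0.18) lie below 0.

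In controls the sums of the following markers of other cells also lay apart between TLR4-WT and the mutants. The 5 intestinal epithelium markers, all with a value, summed to 0.118 to 0.670 FPKM in TLR4-WT controls, 48.7 to 75.3 FPKM in TLR4-K730R controls and 56.6 to 128 FPKM in TLR4-K810R controls. With LPS the sums were 0.0928 to 10.5, 55 to 61.5 and 0.0503 to 22.6 FPKM, so TLR4-K810R overlapped TLR4-WT there. Against TLR4-WT controls, 3 of these 5 markers were called higher in TLR4-K730R and 4 in TLR4-K810R, against 5 and 90 of all 9707 genes. After LPS 4 of the 5 were called lower in TLR4-K810R, against 19.7% of all genes, and none in the other genotypes. Mesothelium and fibroblast markers (5 of 5) summed to 12.1 to 26.0, 30.9 to 36.2 and 54.7 to 135 FPKM in the 3 sets of controls and to 16.0 to 62.7, 19.9 to 22.1 and 42.4 to 52.5 FPKM with LPS. Mast cell markers (5 of 5) summed to 4.70 to 5.25 FPKM in TLR4-WT controls, 0.494 to 2.58 FPKM in TLR4-K730R controls and 0.797 to 2.64 FPKM in TLR4-K810R controls, and to 1.47 to 4.61, 0.504 to 2.51 and 0.672 to 2.09 FPKM with LPS. None of the 3 mast cell markers tested was called between a mutant and TLR4-WT. Of the 4 mesothelium and fibroblast markers tested 1 was called, higher in TLR4-K810R controls than in TLR4-WT, against 90 of all 9707 genes. The part of these cells in the differences was not tested, and in bulk libraries fewer cells of a type and less RNA per cell cannot be told apart.

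The third question is whether the LPS response itself differs between genotypes. By limma none of the 9 members was called in the test of the difference of responses for TLR4-K730R, against 0.0412% of all genes called in either direction, and none had an unadjusted p below 0.05, against 7.02% of all genes. For TLR4-K810R none was called, against 0.124% of all genes, and 1 had an unadjusted p below 0.05, against 13.2% of all genes. That member was Ifi208, whose response minus that of TLR4-WT was −1.55 ± 0.59 (SE) on the log2 scale (95% interval −2.80 to −0.30, adjusted p = 0.27). Its size depends on the pseudocount, since Ifi208 was near 0 in controls: with 0.1 FPKM in place of 1 it was −0.41 (adjusted p = 0.88). The ratio of the LPS mean to the control mean went the other way, at 206 in TLR4-K810R, where 2 of 3 controls were at 0, and 62.9 in TLR4-WT. For Aim2 the response differed by −0.30 (−1.14 to 0.54) in TLR4-K730R and by −0.54 (−1.38 to 0.30) in TLR4-K810R, and for Ifi206 by 0.78 (−0.17 to 1.74) and 0.47 (−0.49 to 1.42). These intervals of Aim2 and Ifi206 hold 0 and also differences of more than 1 on the log2 scale.

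Between the 2 mutants none of the members was called by limma. Without LPS, 0.0721% of all genes were called lower in TLR4-K810R than in TLR4-K730R, no member was lower at an unadjusted p below 0.05, against 3.57% of all genes, and 1 member, Ifi206, had groups that did not overlap, against 6.04% of all genes. With LPS, 0.0309% of all genes were called lower, 3 members were lower at an unadjusted p below 0.05, against 3.26% of all genes, and groups did not overlap for 5 members, against 4.44%. Ifi208 differed by −1.40 (95% interval −2.28 to −0.52, adjusted p = 0.089, or −0.83 without TLR4-K730R LPS replicate 3) and Ifi213 by −1.37 (−2.25 to −0.48, adjusted p = 0.096). Ifi209 and Ifi211 differed by −0.09 (−0.92 to 0.73) and −0.20 (−0.76 to 0.36).

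Other genes of the cluster gave values of the same kind. Ifi214, which borders Ifi206, was listed at 0 in all 9 control libraries and reached 12.7, 11.1 and 5.90 FPKM with LPS in TLR4-WT, 5.12, 6.02 and 11.7 FPKM in TLR4-K730R and 1.46, 2.07 and 5.84 FPKM in TLR4-K810R. It was called higher with LPS in all 3 genotypes (limma, adjusted p from 6.5e-07 to 0.00030), but since it passed the filter through LPS libraries only, these calls are a description. Of the list of 15 further family names, which holds older names of the members, 2 had a value under that name and Ifi214 alone was tested. The pseudogene Ifi203-ps stayed at or below 0.665 FPKM. Mndal, which overlaps Ifi211 and Ifi203, has its rows under the number of Ifi211, and by coordinates they stood at 10.9, 11.2 and 6.05 FPKM in TLR4-WT controls and 96.3, 87.2 and 30.7 FPKM with LPS.

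Genes of a general inflammasome and pyroptosis list, which is not limited to partners of Aim2, were mostly called after LPS. Of 18 inflammasome and pyroptosis genes 13 were tested, of which 10 rose and 3 fell in TLR4-WT and in TLR4-K730R, and 9 rose and 2 fell in TLR4-K810R. Of all genes 10.4%, 9.32% and 9.08% were called higher and 23.9%, 26.5% and 19.7% lower in the 3 genotypes. With median-of-ratios scaling 10 of the 13 were called higher in each, against 15.4%, 15.3% and 12.3% of all genes, while 1, 3 and 2 were called lower, against 14.2%, 13.5% and 11.7%. Pycard, the adaptor of AIM2, fell by 0.76 on the log2 scale in TLR4-WT (limma, adjusted p = 0.0056), from 28.0 ± 1.71 to 16.1 ± 2.14 FPKM (n = 3), a call lost with that scaling (difference −0.45, adjusted p = 0.095). Casp1, the protease of the complex, rose by 1.98 (adjusted p = 1.05e-07), from 16.9 ± 4.09 to 69.2 ± 12.3 FPKM. Its substrates Il1b and Il18 rose by 8.85 and 2.82, and Gsdmd, the pore-forming protein it cleaves, by 1.17. None of the 13 was called between a mutant and TLR4-WT without or with LPS.

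Genes of cytosolic DNA sensing and of type I interferon signalling were counted in the same way. Of 22 DNA-sensing names 17 were tested, with 4 higher and 4 lower after LPS in TLR4-WT, then 5 and 6 for TLR4-K730R, 3 and 5 for TLR4-K810R. Those called lower were 23.5%, 35.3% and 29.4% of the 17, against 23.9%, 26.5% and 19.7% of all genes, and those called higher stand against 10.4%, 9.32% and 9.08%. With median-of-ratios scaling 5, 6 and 4 were called higher and 2, 3 and 3 lower in the 3 genotypes. Of 15 interferon signalling genes 11 were tested, with 6 higher and 0 lower in TLR4-WT, then 5 and 1 for TLR4-K730R, 6 and 0 for TLR4-K810R, against the shares of all genes given above. With median-of-ratios scaling 6 were called higher and 0 lower in each genotype. Without LPS, 2 of the 17 DNA-sensing genes and 1 of the 11 interferon signalling genes were called lower in each mutant and 0 higher, against 0.216% of all genes lower in TLR4-K730R and 0.649% in TLR4-K810R. The median difference was 0.07 and 0.17 over the 17 genes, and −0.21 and −0.22 over the 11. The 2 DNA-sensing genes were Irf7, a transcription factor of interferon genes, and Zbp1, a sensor of Z-form nucleic acid. Irf7 was at 110.3 ± 33.0 FPKM in TLR4-WT controls, 14.8 ± 12.1 in TLR4-K730R (difference −3.03, limma, adjusted p = 0.00037) and 15.2 ± 2.75 in TLR4-K810R (difference −2.75, adjusted p = 0.00039). Zbp1 was at 23.2 ± 3.11 FPKM, 6.50 ± 0.651 and 6.65 ± 0.489 (differences −1.69 and −1.66, adjusted p = 7.9e-07 and 4.1e-07). The interferon signalling gene was Usp18, which restrains interferon receptor signalling (differences −1.60 and −2.11, adjusted p = 0.00022 and 4.4e-06). With LPS no gene of these lists was called between a mutant and TLR4-WT. In the test of the difference of responses 1 of the 17 DNA-sensing genes was called higher for each mutant. Of all genes 0.0412% (TLR4-K730R) and 0.124% (TLR4-K810R) were called there in either direction.

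By Pearson's r over the 18 libraries, as a description, the 5 genes whose log2 levels were most like Aim2 were Cma1 (0.85), Plcl2 (0.83), Ankle2 (0.83), Slc30a1 (0.81) and Vrk2 (0.80). Cma1, the mast cell chymase, was at 0 in 5 libraries and at most 2.0 FPKM, and belongs to the mast cell markers above. The mean standardised level of the 9 members was most like Tor1aip2 (0.99), Dck (0.99), B2m (0.98) and Sp110 (0.98). The libraries of 1 group share genotype and treatment, so the 18 points are not independent.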

How the data were processed

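RNA-seq libraries of peritoneal macrophages (18, in 6 groups of 3) were grouped by the sample labels. The authors deposited FPKM values per library for transcript events in 80071 to 90401 rows. The aligner, counting program and read depth are not given in the sources used here, and no counting interval can be set. The labels name the build hg18, but the gene numbers are mouse and 75.8% of first-exon and last-exon events match the exon ends of exactly 1 gene in GENCODE M21 (GRCm38). Events off that gene's strand or span were left out (5.98% of their FPKM). The larger of the summed first-exon and last-exon FPKM was taken per gene with Python 3.11.15 and pandas 2.3.3.

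The filter of 1 FPKM in 3 libraries left 9707 genes. These were compared by limma 3.58.1 (R 4.3.3) on log2(FPKM + 1), a scale that understates changes of low genes, with all 18 libraries in 1 fit, an intensity trend, Benjamini-Hochberg adjustment per comparison and a threshold of 0.01 (the paper's). The procedure was run on simulated data with independent noise and with changes placed in genes of higher level only. That run does not cover genes of low level or shifts of a whole library. Intervals are 95% and unadjusted for the number of genes. Alternatives changed the pseudocount (0.1), filter, scaling, event kind, rows used, replicate block and libraries. A further one, assigning events by coordinates, was added after the data were seen. Named genes are the 10 members, their neighbours in the cluster, the 5 genes most like them by Pearson's r (1 is not reported here), called or partner genes of 4 lists (other Ifi200 genes, inflammasome, DNA sensing, interferon signalling), markers and Tlr4. Members and lists were chosen with earlier results of these data known.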

Additional observations from a re-analysis of the deposited data

Results flagged for a closer look

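Rows outside the members' own gene numbers held a signal above every control library. The first exon of Ifi204, listed under the number of Ifi211, was at 95.2 FPKM in its lowest LPS library, against at most 49.4 FPKM in a control library. Rows with the coordinates of Mndal, listed under the same number, were at 24.9 FPKM in their lowest LPS library, against at most 11.2 FPKM in a control library. Groups of 3 libraries were not tested for single outlying libraries.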

How the results depend on the processing

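The counts of members called stayed within 1.5 times of the reported ones in all 88 recomputations with another pseudocount, filter, scaling, kind of event, set of rows, replicate block or assignment by coordinates, and in 77 of 78 that left out 1 library. The exception was TLR4-K810R against TLR4-WT with LPS, where leaving out 1 library gave 0 to 3 called members, and 3 without TLR4-WT LPS replicate 3, where 0.889% of all genes were called lower (0.0103% to 0.0413% without any 1 of the other libraries of these groups, with no member among them). Of the differences of single members, 507 of 514 under other settings and 390 of 402 without 1 library kept their direction and their side of the threshold. The sign turned for Aim2 after LPS in TLR4-K730R, to 0.19 with median-of-ratios scaling and over a range of −0.36 to 0.070 without 1 library. It turned for Aim2 after LPS in TLR4-WT (range −0.073 to 0.44 without 1 library) and for Ifi206 between TLR4-K730R and TLR4-WT with LPS (range −0.17 to 0.38). These were not called at any setting, and the cause was not tested. Deviations from group means correlated at −0.32 to 0.099 between same-numbered libraries, none above 0.1. That gives no sign of pairing by number, but groups of 3 libraries cannot exclude it. With the replicate block the counts were 7, 7 and 7 for LPS, since Ifi207 in TLR4-K810R missed the threshold (adjusted p = 0.012), and 0 in all other comparisons. The fits with first-exon or with last-exon events alone could test 8 of the members. Depth is unknown, so low values such as those of Ifi208 and Ifi213 in controls cannot be told from 0.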
